A study of Mus musculus with 4 samples.

Results

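The FGF receptors and the proteins that link them to the cell interior were examined in primary cultures of newborn (P0) mouse prefrontal cortex (PFC). The set held 8 genes of the 55421 listed, chosen by name: the receptors Fgfr1, Fgfr2, Fgfr3, Fgfr4 and Fgfrl1, the scaffold genes Frs2 and Frs3, and the co-receptor gene Klb. All cultures came from wild-type C57BL/6 mice, were dissociated after the meninges and vessels had been peeled off, and grew for 10 days in a serum-free neurobasal medium with B27. The FGF2 group (2 libraries) received FGF2, a growth factor that binds these receptors, at 5 ng/mL, and the no FGF2 group (2 libraries) did not. Total RNA was sequenced in bulk, so a change in a gene's level can come from fewer cells of a type or from less RNA per cell, and these cannot be told apart. The sources do not say that the libraries of a group came from separate cultures or animals. In a passage that names only human samples, the paper calls all replicates but those of its youngest and oldest tissue technical. The p-values measure the spread between libraries, which may be technical and not between cultures.

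FGF receptors are receptor tyrosine kinases with immunoglobulin-like domains outside the cell, and they pair up and phosphorylate one another when FGF and heparan sulphate bind. The membrane-anchored scaffold FRS2 is then phosphorylated and gathers the adaptor GRB2 and the phosphatase SHP2, from which the RAS-ERK and PI3K-AKT cascades start. In the cortex FGF receptors are known for their roles in neural progenitors and in glia, and Fgfr3 is widely used as an astrocyte gene.

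Counts on genes ranged from 9166432 to 10799886 per library, and 17144 genes passed the filter on low counts and were tested. Levels are given as CPM, in which counts are divided by the TMM-adjusted size of their library, and levels of different genes are compared only as CPM per kb of exon. With edgeR, 40.5% of the tested genes passed an adjusted p of 0.05, made up of 20.7% that rose and 19.9% that fell under FGF2. For 67.0% of tested genes the libraries of the groups did not overlap (33.6% with the FGF2 libraries above and 33.4% with them below), so that such a gap was common. DESeq2 called fewer genes, 23.2% of those it tested, with the same members past the threshold. The middle of all log2 fold changes lay at -0.00082, the 25% and 75% points at -0.27 and 0.29.

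Of the 8 genes, 6 passed the filter, and of these Fgfr1 and Fgfrl1 were higher with FGF2, Fgfr3 was lower, and Fgfr2, Frs2 and Frs3 did not pass the threshold. The share of tested members past it was thus near the 40.5% of all tested genes. The result lies in which receptor moved which way. Fgfr4 and Klb were at or near 0 counts. In 5 of the 6 tested genes the libraries of the groups did not overlap, beside 67.0% of all tested genes. Fgfr1, Fgfrl1 and Frs2 were above and Fgfr3 and Frs3 below, and the exception was Fgfr2. On its own such a gap says little, and Frs2 and Frs3 did not pass the threshold.

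**Figure D1:**
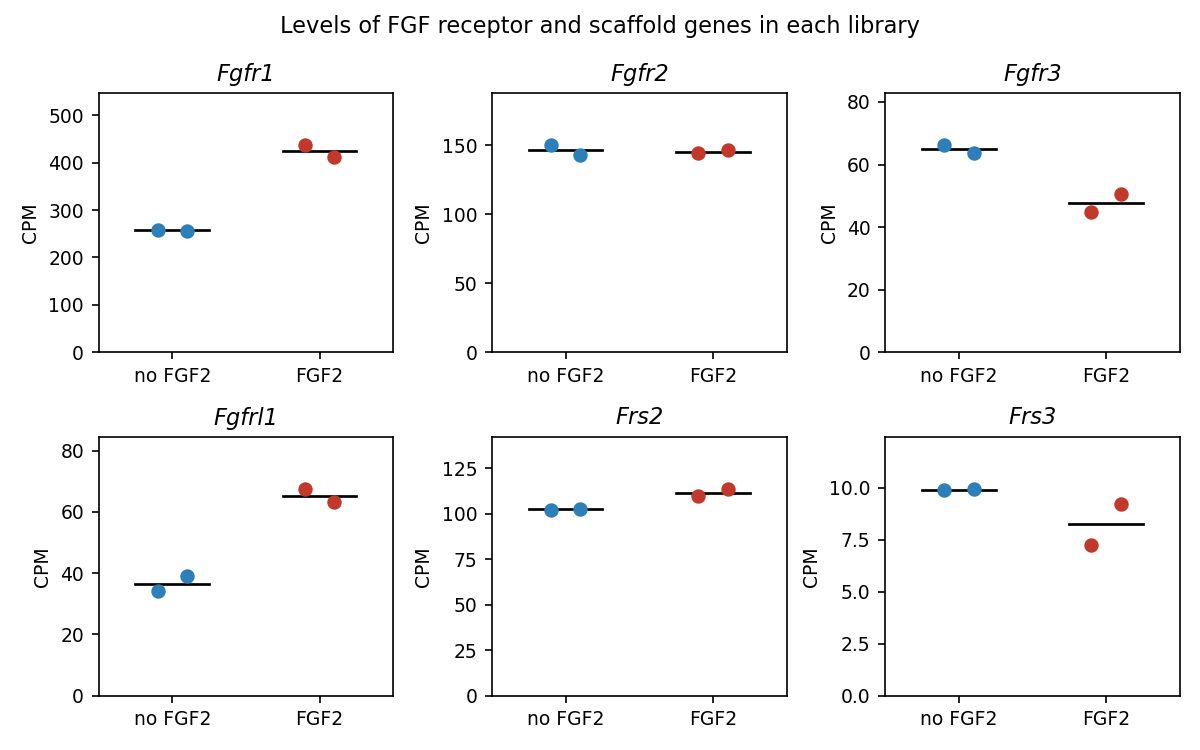
Levels of the tested receptor and scaffold genes in each library, in CPM, with 1 point per library and a bar at the group mean (n = 2 libraries per group). Fgfr1 was at 413 and 437 CPM with FGF2 and at 256 and 258 CPM without, Fgfr3 was at 45.0 and 50.6 CPM with FGF2 and at 63.6 and 66.2 CPM without, and the libraries of Fgfr2 overlapped.

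Fgfr1 (ENSMUSG00000031565, chr8:25513654-25575718 in mm10, plus strand), a main receptor for FGF2, was the most abundant member in every library per kb of exon. It had 437 and 413 CPM in the libraries with FGF2 and 258 and 256 CPM in those without. Both FGF2 libraries lay above both no FGF2 libraries, and the gap was many times the spread within a group. The mean was 425 ± 16.9 CPM (SD, n = 2) with FGF2 and 257 ± 1.42 CPM (SD, n = 2) without. The transcription level of Fgfr1 was 1.65-fold higher with FGF2 (log2 fold change 0.72, SE 0.042, 95% interval 0.64 to 0.80, edgeR adjusted p = 3.2e-65). Of all tested genes, 9.46% had a higher log2 fold change.

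Fgfrl1 (ENSMUSG00000008090, chr5:108692382-108706924, plus strand) codes for a receptor that binds FGFs outside the cell but has no kinase domain inside it. Its levels were 67.6 and 63.2 CPM with FGF2 and 34.1 and 39.1 CPM without. Again every FGF2 library was above every no FGF2 library. The means were 65.4 ± 3.13 and 36.6 ± 3.52 CPM (SD, n = 2 each), a 1.79-fold rise with FGF2 (log2 fold change 0.84, SE 0.089, 95% interval 0.66 to 1.01, edgeR adjusted p = 1.9e-19). This was the largest log2 fold change among the 6 tested members, and 7.63% of all tested genes had a higher one. The intervals of Fgfrl1 and Fgfr1 overlapped, and whether these genes rose by different amounts was not tested.

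Fgfr3 (ENSMUSG00000054252, chr5:33721674-33737068, plus strand) moved the other way. It had 45.0 and 50.6 CPM with FGF2 and 66.2 and 63.6 CPM without, so that both FGF2 libraries were the lowest. The means were 47.8 ± 3.99 and 64.9 ± 1.84 CPM (SD, n = 2 each), and the level with FGF2 was 0.738 of that without (log2 fold change -0.44, SE 0.085, 95% interval -0.61 to -0.27, edgeR adjusted p = 1.5e-06). A lower log2 fold change was found for 15.3% of all tested genes. Fgfr3 was the sole member past the threshold that fell.

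Fgfr2 (ENSMUSG00000030849, chr7:130162451-133123350, minus strand), another kinase receptor of glia and progenitors, had 144 and 146 CPM with FGF2 and 150 and 143 CPM without. The no FGF2 libraries lay on both sides of the FGF2 libraries. The means were 145 ± 1.5 and 146 ± 5.02 CPM (SD, n = 2 each), and the log2 fold change was -0.01 (SE 0.056, 95% interval -0.12 to 0.10, adjusted p = 0.895 with edgeR). The interval leaves room for a change of at most 0.12 on the log2 scale in either direction. The annotated span of 2960900 bases comes from 1 long transcript and is 103813 bases without it. The exons of Fgfr2 share 314 bases with those of Ctbp2 on the same strand, which had 711 to 981 counts per library.

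Fgfr4 (ENSMUSG00000005320, chr13:55152640-55168759, plus strand), a receptor best known from liver and muscle, had 0 and 0 counts with FGF2 and 1 and 0 counts without. A floor of 3 counts corresponds to 0.278 to 0.327 CPM in these libraries, so the level of Fgfr4 was below what this depth can show in either group. Floors and counting intervals cover counting error only.

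The promoters of a receptor that rose, one that fell and one that did not pass the threshold are printed here to show their base composition, which is much alike in Fgfrl1 and Fgfr3 and lower in G and C in Fgfr2. Each covers 250 bases before to 50 bases after an annotated start, from RefSeq on GRCm38.p6 (mm10), read on the gene's strand from 5′ to 3′, and 7 of the 8 members had an entry, Fgfr1 having none. The first is Fgfrl1 (chr5:108693979-108694278, plus strand), with 73.7% G and C and 37 CpG sites. The next is the first of 2 starts of Fgfr3 (chr5:33721474-33721773, plus strand), with 69.7% and 26 CpG sites (73.0% and 30 at the second start, not printed). The last is Fgfr2 (chr7:130266759-130267058, minus strand), with 43.7% and 4 CpG sites. Capitals mark CCGGAAGT, the letters searched for ETS factors, on either strand.
Fgfrl1: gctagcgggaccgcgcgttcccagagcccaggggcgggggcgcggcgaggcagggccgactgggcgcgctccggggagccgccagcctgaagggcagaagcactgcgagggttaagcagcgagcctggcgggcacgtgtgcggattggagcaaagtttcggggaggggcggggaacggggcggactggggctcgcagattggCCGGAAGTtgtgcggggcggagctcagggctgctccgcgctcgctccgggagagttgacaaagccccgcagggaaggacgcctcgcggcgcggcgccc
Fgfr3: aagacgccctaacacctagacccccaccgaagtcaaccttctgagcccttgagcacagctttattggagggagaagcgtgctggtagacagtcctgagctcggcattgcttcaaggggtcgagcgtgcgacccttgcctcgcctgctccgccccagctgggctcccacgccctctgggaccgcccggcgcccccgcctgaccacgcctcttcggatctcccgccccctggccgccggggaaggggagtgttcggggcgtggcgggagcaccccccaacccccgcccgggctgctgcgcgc
Fgfr2: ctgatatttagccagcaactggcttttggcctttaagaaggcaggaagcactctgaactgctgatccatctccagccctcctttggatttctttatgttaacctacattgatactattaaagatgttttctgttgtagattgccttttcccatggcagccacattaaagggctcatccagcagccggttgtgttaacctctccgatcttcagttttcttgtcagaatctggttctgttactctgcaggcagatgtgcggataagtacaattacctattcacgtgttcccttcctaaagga
The letters CCGGAAGT stood once in the promoter of Fgfrl1, 48 bases before the start, and once in that of Frs2, 62 bases before the start, and in none of the other promoters with an entry. Of all 32851 promoters of the same length, 3.89% held them. The AP-1 letters TGANTCA stood in no member's promoter and in 7.81% of all promoters. The GC box GGGCGG stood 4 times in the promoter of Fgfrl1, 4 times at the first start of Fgfr3 and 2 times at the second. It also stood 4 times in that of Fgfr4, 2 times in that of Frs2 and 5 times in that of Frs3. These had 65.3%, 72.0% and 76.7% G and C, so such promoters were not particular to members past the threshold. The box was not in that of Fgfr2 or Klb, and 35.7% of all promoters had at least 1. The CCGGAAGT and GGGCGG letters do not overlap one another in these promoters. These matches describe the letters and are not shown to be binding sites.

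Frs2 (ENSMUSG00000020170, chr10:117069427-117148534, minus strand), the scaffold that carries the receptor signal to GRB2 and SHP2, had 110 and 114 CPM with FGF2 and 102 and 103 CPM without. The FGF2 libraries were both higher, but by little. The means were 112 ± 2.96 and 102 ± 0.275 CPM (SD, n = 2 each), and the difference did not pass the threshold (log2 fold change 0.13, SE 0.064, 95% interval -0.00064 to 0.25, edgeR adjusted p = 0.109). A stretch of 427 bases of the Frs2 transcript is 98.6% identical to one of Galnt1, so reads there may have been left out by the mapping quality filter.

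Frs3 (ENSMUSG00000023266, chr17:47689030-47704286, plus strand), the paralogue of Frs2, was low, with 7.25 and 9.23 CPM with FGF2 and 9.87 and 9.95 CPM without. Both FGF2 libraries were below the others, with 66 and 91 counts against 104 and 108. The means were 8.24 ± 1.40 and 9.91 ± 0.0544 CPM (SD, n = 2 each), and the difference did not pass the threshold (log2 fold change -0.26, SE 0.20, 95% interval -0.66 to 0.13, edgeR adjusted p = 0.316). The estimate was -0.11 without FGF2 replicate 1 and -0.45 without FGF2 replicate 2. Klb (ENSMUSG00000029195, chr5:65348314-65384007, plus strand), the beta-klotho co-receptor of endocrine FGFs, had 3 and 2 counts with FGF2 and 5 and 3 counts without. The ratio of the sums, scaled for depth, was 0.705 with an exact 95% counting interval of 0.182 to 2.45, so no difference was detectable at this depth.

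**Figure D2:**
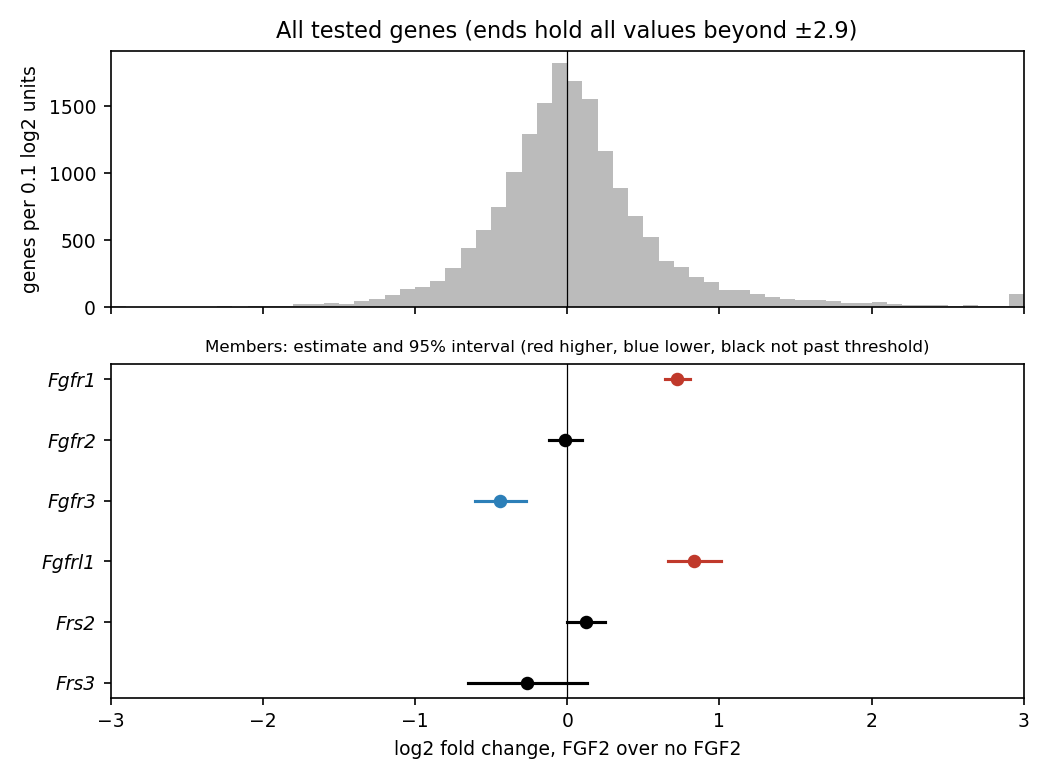
Log2 fold changes (FGF2 over no FGF2) of the 6 tested members with 95% intervals from edgeR, beside the distribution of all 17144 tested genes. Fgfr1 (0.72) and Fgfrl1 (0.84) lie above 0 and Fgfr3 (-0.44) lies below 0 with their whole intervals, and the intervals of Fgfr2, Frs2 and Frs3 include 0.

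Members were also compared with each other, per kb of exon. With FGF2 the order was Fgfr1, Fgfrl1, Fgfr2, Frs2, Fgfr3 and Frs3, from 43.0 ± 1.71 CPM per kb for Fgfr1 to 2.63 ± 0.446 for Frs3 (SD, n = 2 each). Without FGF2 the levels were 26.1 ± 0.144 CPM per kb for Fgfr1 and 14.2 ± 0.486 for Fgfr2. There Fgfr2 and Fgfrl1 (13.1 ± 1.27) could not be told apart, since their libraries overlapped, followed by Frs2 at 11.7 ± 0.0315, Fgfr3 at 9.06 ± 0.257 and Frs3 at 3.17 ± 0.0174. With FGF2, Fgfrl1 was at 23.5 ± 1.13 CPM per kb, above Fgfr2 at 14.1 ± 0.145. The order after Fgfr1 depends on the length used. Divided by the length of the longest transcript instead, Fgfr2 was above Fgfrl1 in both groups (32.8 against 28.1 with FGF2 and 33.1 against 15.7 without), and without FGF2 Frs2 (16.0), Fgfrl1 (15.7) and Fgfr3 (15.3) were nearly level. Counts per gene also do not separate splice forms of the receptors.

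The make-up of the kinase receptor pool differed between the groups. Fgfr1 made up 68.6% and 66.3% of the summed level of Fgfr1 to Fgfr4 with FGF2, and 52.4% and 53.3% without. The groups did not overlap, and the mean share was 67.5% ± 1.62 against 52.9% ± 0.679 (SD, n = 2 each), a difference of 14.6 percentage points. Fgfr2 took 22.0% ± 0.577 with FGF2 and 28.7% ± 0.458 without, and Fgfr3 took 10.5% ± 1.04 and 18.4% ± 0.183. Shares sum to a fixed total, so the lower share of Fgfr2 stood beside a level in CPM that did not change past the threshold. With 2 libraries a group, no exact permutation test of a share can reach 0.05, and none was run.

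**Figure D3:**
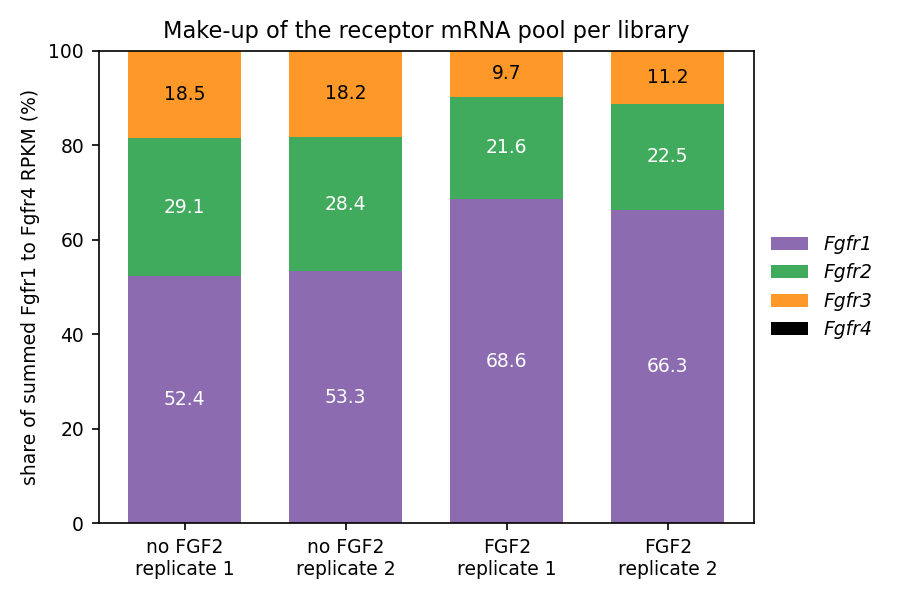
Share of Fgfr1, Fgfr2, Fgfr3 and Fgfr4 in their summed CPM per kb of exon (RPKM on the axis), in percent, with 1 stacked bar per library. The share of Fgfr1 was 66.3% to 68.6% in the libraries with FGF2 and 52.4% to 53.3% in those without, and Fgfr4 does not show at this scale.

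The summed level of the kinase receptors was 63.8 ± 1.01 CPM per kb with FGF2 and 49.3 ± 0.906 without (SD, n = 2 each), a ratio of 1.29. The ratio of Fgfr1 to Fgfr3 was 6.48 ± 0.798 with FGF2 and 2.88 ± 0.0656 without, and that of Fgfr1 to Fgfr2 was 3.06 ± 0.153 and 1.84 ± 0.0529. The kinase-less Fgfrl1 stood at 0.369 ± 0.0118 of the summed kinase receptors with FGF2 and at 0.267 ± 0.0306 without. With the longest transcript length, an alternative chosen after seeing the data, these were 0.219 and 0.158. None of these ratios per kb of exon overlapped between the groups, but the groups also did not overlap for 67.0% of all tested genes. The ratios reuse the same receptor levels and are not separate results. Frs2 and Frs3 together were at 15.4 ± 0.784 and 14.9 ± 0.0489 CPM per kb, and here the libraries overlapped. The scaffold pool thus differed by less than its spread, and the receptor pool by more.

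Marker genes of several cell types moved with FGF2 as well, beside the receptors. Of all tested genes, 20.7% were higher and 19.9% lower. Of 10 astrocyte markers, 9 were tested, 8 were higher and none lower, and their summed level was 12544 to 12675 CPM with FGF2 and 7659 to 7706 CPM without. Gfap alone gave 5777 ± 214 of these CPM with FGF2 and 2768 ± 7.76 without (SD, n = 2 each), and the gap junction gene Gjb6 was near 0, with 1 to 6 counts. Fgfr3 was thus lower in libraries in which 8 of 9 tested astrocyte markers rose. Of 10 oligodendrocyte lineage markers, 9 were tested and all 9 were higher, at 1859 to 1868 CPM in sum against 558 to 567 CPM. Neuronal lists went the other way, with 10 of 10 pan-neuronal markers lower (3680 to 3832 CPM in sum against 5413 to 5434 CPM), 8 of 8 inhibitory neuron markers lower (665 to 674 CPM against 1104 to 1132 CPM) and 4 of 8 excitatory neuron markers lower (493 to 516 CPM against 626 to 656 CPM). Of 8 progenitor and radial glia markers 3 were higher and 3 lower, and of 7 proliferation markers 6 were lower (197 to 200 CPM in sum against 261 to 266 CPM). The microglia list had 3 of 7 markers tested, all 3 higher, at 12.3 to 13.9 CPM in sum against 4.84 to 5.34 CPM. Of 6 tested meningeal and mural markers 2 were higher and 2 lower, and of 3 tested endothelial markers 1 was higher (Flt1, 52 and 36 counts against 6 and 9) and 1 lower (Kdr, 12 and 20 counts against 24 and 46), while Cldn5 was at 0 counts in every library. Ptprc of the microglia list (21 and 28 counts with FGF2, 3 and 10 without) and Flt1 reached the low-count filter only through the FGF2 libraries. Col1a2 of the meningeal list (19 and 9 counts with FGF2, 44 and 62 without) reached it only through the others. The directions of these genes are thus tied to the filter. The part of the listed cell types in the levels of Fgfr1, Fgfrl1 and Fgfr3 was not tested.

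The genes whose levels across the 4 libraries were most like Fgfr1, Fgfr2, Fgfr3, Fgfrl1 and Frs2, the members with a mean of at least 20 CPM, were found among 8501 genes by the root mean square difference of centred log2 CPM. For Fgfr1 these were Pdgfrb, a growth factor receptor of mural cells (0.00975), and Dhrs1 (0.0111). For Fgfrl1 they were Wwtr1, which codes for the Hippo pathway coactivator TAZ (0.0249), and Ypel3 (0.0315). For Fgfr3 they were Azin1, a regulator of polyamine synthesis, and 2010300C02Rik (both 0.0125). Ddx18 and Pacs2 were the nearest to Fgfr2, and Tmcc1 and Pds5a to Frs2. With 4 libraries in 2 groups many genes share a pattern, and 297 genes lay within 0.1 of Fgfr1.

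The other genes of the pathway were taken from lists. The counts of each list are to be read beside the 20.7% higher and 19.9% lower of all tested genes. Of 18 secreted FGF ligands, 5 were tested, with 1 higher and 3 lower. Their median log2 fold change was -0.65, beside -0.00082 over all tested genes. Among the 5, Fgf18 (9 and 9 counts with FGF2, 23 and 25 without) was 1 of the 3 lower. Fgf10 (9 and 4 counts with FGF2, 11 and 11 without) did not pass. Both reached the low-count filter only through the no FGF2 libraries, so their directions are tied to the filter. The median and, for Fgf18, the count of lower ligands include them. Endogenous Fgf2 RNA rose, with 57.8 and 59.4 CPM in the FGF2 libraries and 7.40 and 7.55 CPM in the others (log2 fold change 2.97, SE 0.13, edgeR adjusted p = 1.0e-113). Fgf1, a ligand for all FGF receptors, fell from 88.5 ± 0.768 to 32.0 ± 0.0398 CPM (SD, n = 2 each), and its log2 fold change was -1.47 (adjusted p = 1.1e-62, edgeR). Fgf9 was also lower with edgeR (log2 fold change -0.65, edgeR adjusted p = 0.0060), but not with DESeq2 (adjusted p = 0.149), which called 1 of the 3 lower ligands, Fgf1. The count of lower ligands was also 1 without no FGF2 replicate 1 and 2 without each other library. The added FGF2 was a protein and adds no RNA of its own.

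Of 10 genes for receptor partners, cell surface proteins that bind FGF receptors or their ligands, 8 were tested, with 1 higher, 4 lower and a median of -0.15, which was -0.25 without FGF2 replicate 2. The adhesion molecules Ncam1 (log2 fold change -0.47, SE 0.031) and L1cam (-0.65, SE 0.042) and the transmembrane protein gene Flrt1 (-0.66, SE 0.10) were lower, with the highest edgeR adjusted p among them at 3.1e-09. All 3 are also expressed by neurons. The sole partner that rose was Cdh2, N-cadherin, by 0.21 (edgeR adjusted p = 7.5e-07). Kl, the alpha-klotho gene, had 4 to 11 counts and was not tested.

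The adaptor list held 17 genes for adaptors, docking proteins and enzymes that act close to the receptors, and all were tested. Of these, 6 were higher, 4 were lower and 7 did not pass, with a median of -0.02. Gab1, a docking protein that recruits PI3K, rose from 121 ± 1.2 to 191 ± 9.70 CPM (SD, n = 2 each), or by 0.66 on the log2 scale (adjusted p = 3.5e-31, edgeR). The SHC adaptor genes differed. Shc1 rose by 0.68 on the log2 scale (edgeR adjusted p = 1.4e-09) and Shc2 fell by 0.64 (edgeR adjusted p = 6.2e-09), while Shc3 was at -0.02 on the log2 scale and did not pass (adjusted p = 0.881, edgeR). Grb2, the direct partner of FRS2, was at -0.13 on the log2 scale and did not pass (adjusted p = 0.0626, edgeR).

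Further down, 16 genes of the RAS-ERK cascade gave 4 higher and 6 lower genes with a median of -0.08. Rras, a RAS-related GTPase, was at 52.6 ± 3.75 CPM with FGF2 and 16.3 ± 0.0804 CPM without (SD, n = 2 each), the largest change of the list (log2 fold change 1.69, edgeR adjusted p = 7.6e-49). The ERK-activated kinases Rps6ka1 and Rps6ka2 had log2 fold changes of 0.72 and -0.67. Of 9 PI3K-AKT genes, 3 were higher and 5 lower with a median of -0.23. Here the catalytic subunit gene Pik3ca (0.44) and Akt2 (0.37) rose. Neither cascade moved one way as a list.

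The feedback inhibitors of the pathway include the Sprouty and DUSP genes that ERK signalling induces. This list gave 9 higher and 0 lower genes of 12 tested, beside 20.7% and 19.9% of all tested genes. Its median was 0.28. Spry4 was at 31.1 and 30.4 CPM with FGF2 and at 15.6 and 14.3 CPM without, with no overlap of the groups (log2 fold change 1.04, edgeR adjusted p = 1.8e-14). Spry1 (0.85) and the ERK phosphatase gene Dusp6 (0.48) also passed with edgeR, at adjusted p of 0.0030 and 0.0026. With DESeq2 the count was 3 higher genes, Spry4, Spred1 and Nf1, with Spry1 and Dusp6 at adjusted p of 0.0999 and 0.101. The lowest log2 fold change of the list was -0.05.

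The ETS factors and early response genes gave 8 higher and 2 lower of 11 tested, beside 20.7% and 19.9% of all tested genes. Their median was 0.47. Fos rose from 15.4 ± 0.128 to 54.5 ± 4.0 CPM (SD, n = 2 each), or by 1.82 on the log2 scale (adjusted p = 2.2e-56, edgeR). Elk3 (1.08) and Egr1 (0.75), an ETS factor and an early response factor downstream of ERK, were also higher. The lower genes were Etv4 and Elk1, named here because they are few, and neither was called by DESeq2 (adjusted p = 0.115 and 0.171). The count of lower genes was 0 without FGF2 replicate 2 and 1 without either no FGF2 library. Etv5, of the same subfamily as Etv4, was higher, with 133 ± 4.64 against 96.4 ± 1.53 CPM (SD, n = 2 each).

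Overlap and similarity with other genes set limits on single members. The coding sequences of the receptor genes share few long identical stretches, with the longest of 26 bases between Fgfr1 and Fgfr3, well short of the 150-base reads. The first pair are the longest shared by Fgfr3 with Fgfr4 and with Fgfr2, and the third is that of the scaffold pair, all read 5′ to 3′ from the coding strand.
Fgfr3 and Fgfr4: atggaaagtgtggtaccctc
Fgfr2 and Fgfr3: ccacaccggcccatcct
Frs2 and Frs3: aatgtggatgatga
These stretches are 20, 17 and 14 bases long, shorter than a read. Antisense genes overlap exons of Fgfr1 (Gm16159, 0 to 2 counts), Fgfr3 (G630022F23Rik, 8 to 18 counts) and Frs3 (Frs3os, 0 to 2 counts). Tomm6os shares 69 exon bases with Frs3 on the same strand and had 13 to 34 counts. The strand setting of the counting is not given in the sources used here, so reads in these overlaps cannot be assigned with certainty.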

How the data were processed

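RNA was measured in 4 libraries of P0 mouse PFC cultures, 2 with FGF2 and 2 without, grouped by the treatment label. Paired 150-base reads were aligned to mm10 by the authors with HISAT2 2.1.0, filtered with Samtools at a mapping quality of 20 and counted per gene with HTSeq 0.11.2, versions per the submitters' processing notes, and the authors deposited raw counts per gene without normalization. The annotation release and strand setting are not given in the sources used here. Reads with several equal matches are removed by such a filter, so genes with near-identical copies can be counted too low.

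The 5 tallies that name no gene were left out. Reads in no feature were 43.2% to 45.9% and ambiguous reads 1.47% to 1.76%. Of 55421 gene identifiers, 55240 matched GENCODE M21, which gave names, coordinates and exon lengths. All 37 mitochondrial genes were at 0 counts. Counts were tested with the quasi-likelihood test of edgeR 4.0.16 (R 4.3.3), with TMM scaling, the filterByExpr filter with the groups and Benjamini-Hochberg adjustment over 17144 genes at 0.05. The common biological coefficient of variation was 3.90%. Chi-square per degree of freedom between libraries of a group was 2.28 and 1.76, so their counts differed by more than sampling noise. This does not show how the libraries were made. Alternatives used DESeq2 1.42.0, limma 3.58.1 (voom), other scalings and filters, the replicate number as a block, and each library left out.

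CPM per kb used the union of exons. Log2 CPM of the genes most alike had a prior count of 1. Coding sequences were compared for identical stretches, and transcripts with BLAST 2.17.0 (at least 100 bases at 95% identity). Promoters came from RefSeq, and the motifs were chosen with the promoter sequences in view. The members and gene lists were chosen with earlier results of these data known. All 8 members were named, and of each list at most 3 genes with the largest absolute log2 fold change among those past 0.05 with a mean of at least 5 CPM, and the 2 genes most like each member with at least 20 CPM. Other list genes named were chosen after their values were seen. These were Cdh2, Kl, Grb2, Shc3, Spred1, Nf1, Etv4, Etv5, Elk1, Fgf10, Fgf18 and the markers Gfap, Gjb6, Ptprc, Col1a2, Flt1, Kdr and Cldn5.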

Additional observations from a re-analysis of the deposited data

How the results depend on the processing

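Under 12 alternatives, Fgfr1 and Fgfrl1 stayed past the threshold and higher and Fgfr3 past it and lower with FGF2, with log2 fold changes of 0.68 to 0.76, 0.74 to 0.94 and -0.53 to -0.36 and highest adjusted p of 2.4e-30, 1.9e-08 and 0.0035. Frs2 (0.095 to 0.15) and Frs3 (-0.45 to -0.11) stayed short of it, with adjusted p of 0.0997 to 0.401 and 0.151 to 0.760. Fgfr2 ranged from -0.051 to 0.019 (adjusted p 0.633 to 0.958) and changed sign without no FGF2 replicate 1 (0.019). When 1 library is left out, its group has 1 library, which is assumed to vary like the other group.

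DESeq2 called 4007 genes (2068 higher and 1939 lower), of which 4005 were shared with the 6949 of edgeR; leaving out a library gave 5213 to 6199. The share of Fgfr2 differed by -7.71 percentage points with the longest transcript length and -7.74 without length, that of Fgfr3 by -6.59 and -6.10, and that of Frs2 among the scaffolds by 1.97 without length, against -6.70, -7.90 and 4.24. Leaving out a library gave 13.5 to 15.8 for Fgfr1, -7.11 to -6.29 for Fgfr2, -8.63 to -7.16 for Fgfr3 and 2.81 to 5.67 for Frs2. The median of the adaptor list changed sign without FGF2 replicate 2 (0.032) and without no FGF2 replicate 1 (0.026), within -0.019 to 0.032 over the libraries left out. The cause of these shifts was not tested.

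The libraries of both groups carry the numbers 1 and 2, and the deviations of same-numbered libraries had a correlation of 9.1e-06. With 2 libraries a group the deviations are mirror images, so this value is a description only. It cannot tell whether same-numbered libraries share an animal or a culture day. With the replicate number as a block, log2 fold changes were 0.72 for Fgfr1, -0.44 for Fgfr3, 0.84 for Fgfrl1, 0.12 for Frs2, -0.27 for Frs3 and -0.01 for Fgfr2, and 6814 genes were called. No member's call changed.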
